A study of Mus musculus with 14 samples.

Results

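The 9 genes described here encode the Toll-like receptors TLR2, TLR3 and TLR4, the co-receptors CD14 and MD-2 (*Ly96*), the adaptor MyD88 and the kinases *Irak1*, *Irak2* and *Irak4*. Their probes were taken by gene name from a mouse whole-genome array: 14 of the 41174 probes other than controls carried these 9 names, and 13 of the 14 were among the 22166 probes bright enough to be tested. Mouse embryonic fibroblasts (MEFs) lacking the NF-κB subunit p65 (*p65*(-/-)) had been complemented by lentivirus with wild type p65, with the acetylation-deficient mutants KTR (K310/314/315R) or K314/315R, in which lysines were exchanged for arginines, or with the empty vector pTV. All lines carried the *p65*(-/-) background, were selected pools of infected cells and were starved overnight. Mouse TNFα was given at 30 ng/ml for 3 hours, and wild type cells were also left without TNFα (0 h). There were 3 arrays each for wild type at 3 h, wild type at 0 h, KTR and pTV, and 2 for K314/315R. The arrays lay on 4 slides. Slides 1 to 3 held 1 array of each of the first 4 groups, and slide 4 held both K314/315R arrays, so that for K314/315R slide and line cannot be told apart.

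Toll-like receptors recognise microbial products: TLR2 senses bacterial lipopeptides at the cell surface, TLR4 senses lipopolysaccharide together with MD-2 and CD14, and TLR3 senses double-stranded RNA in endosomes. TLR2 and TLR4, unlike TLR3, signal through the adaptor MyD88, which gathers the IRAK kinases into a complex that ends in activation of NF-κB. NF-κB, of which p65 is a subunit that activates transcription, is thus a downstream effector of these receptors, and fibroblasts express several of them. TNFα activates the same transcription factor through its own receptor.

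The promoters of *Tlr2*, *Tlr3* and *Myd88* are shown because these genes were the members that differed between cells with and without p65. RefSeq promoters (GRCm38.p6, 250 bases before to 50 after an annotated start) were used for 6 of the 9 genes, in 7 windows. None was used for *Tlr4*, *Cd14* or *Ly96*. The windows were searched on both strands for the κB consensus and for the core of the interferon-stimulated response element (ISRE), GAAANNGAAA. The printed part runs from 220 bases before to 20 after the start, on the minus strand for all 3 genes, at chr3:83841589-83841828 for *Tlr2*, chr8:45410361-45410600 for *Tlr3* and chr9:119339999-119340238 for *Myd88*. Capitals mark κB letters in *Tlr2* and *Tlr3* and the ISRE core in *Myd88*.
Tlr2: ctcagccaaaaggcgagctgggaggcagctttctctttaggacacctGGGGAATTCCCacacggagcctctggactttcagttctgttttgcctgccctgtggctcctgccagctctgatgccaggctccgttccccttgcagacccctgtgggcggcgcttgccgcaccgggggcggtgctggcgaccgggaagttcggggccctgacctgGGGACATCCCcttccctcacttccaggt
Tlr3: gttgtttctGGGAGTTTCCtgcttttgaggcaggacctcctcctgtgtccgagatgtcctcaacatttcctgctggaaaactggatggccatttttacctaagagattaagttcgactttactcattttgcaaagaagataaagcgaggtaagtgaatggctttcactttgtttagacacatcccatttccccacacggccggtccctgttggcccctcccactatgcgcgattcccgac
Myd88: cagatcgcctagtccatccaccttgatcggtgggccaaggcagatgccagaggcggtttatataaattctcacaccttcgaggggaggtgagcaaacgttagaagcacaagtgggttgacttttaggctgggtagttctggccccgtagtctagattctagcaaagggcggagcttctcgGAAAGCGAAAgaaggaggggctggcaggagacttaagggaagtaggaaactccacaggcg
In *Tlr2* the κB letters stood in 2 places, a stretch from -173 to -163 that held 3 overlapping matches, of which those from -172 to -163 lay on both strands, and a single match from -8 to 2. *Tlr3* held 1 match, from -211 to -202. The *Myd88* window held no κB match and 1 ISRE core, from -40 to -31. The windows of *Irak1*, *Irak2* and *Irak4* held neither motif, which says only that these letters are not in these windows. Of all 32851 promoter windows in the table, 4.51% held the κB consensus and 3.44% the ISRE core. The annotated start used for *Tlr2* lies 216 bases inside the gene's outermost start and that for *Tlr3* 695 bases inside it, so other starts exist.

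All levels below are log2 signals relative to the 75th percentile of the same array, so that 0 means a signal at that percentile. They compare 1 probe between groups and do not rank different genes. A probe was called where limma gave an adjusted p below 0.05 (Benjamini-Hochberg over all tested probes) and the fold exceeded 1.8 either way, or 2 in comparisons with pTV. The groups had 2 or 3 arrays of RNA isolated on different days. As for the arrays as a whole, 49.9% to 57.7% of spots were well above background, and no member spot was saturated. The 2 probes for *Rela*, the gene that encodes p65, read 1.00, 1.19 and 1.34 and -2.84, -2.53 and -2.31 in the pTV arrays, well above background. Whether they lie in the deleted part of the gene or detect the human p65 that the study's plasmids carried is not given, so they do not check the labels. Of 10 fibroblast markers, 9 were well above background on all 14 arrays. Among 10 myeloid markers, *Ptprc*, *Emr1*, *Itgam*, *Fcgr1* and *Aif1* were not well above background on any array, while *Csf1r* was so on 13 arrays, *Mpeg1* on 9, *Cd68* on 6, *Cd300a* on 4 and *Lyzs* on 1. The summed signal of the myeloid list, relative to the percentile, was 0.268 to 0.327 in wild type at 3 h and 0.253 to 0.348 in pTV.

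Cells with p65 differed from pTV cells in *Tlr2*, *Tlr3* and *Myd88* after 3 h of TNFα. This comparison asks which of these genes differed at 3 h between the lines with p65 and the line without it. The lines were selected pools, and whether replicates came from separate infections is not given. The p-values therefore cannot separate p65 from other differences between the pools. There were no unstimulated pTV arrays, so a difference already present before TNFα cannot be told from one under TNFα. In wild type cells 3 of the 9 genes were called higher than in pTV (4 of the 13 probes) and none was called lower, against a background of 3.59% of all tested probes called higher and 1.46% called lower. The median log2 fold change over the 9 genes was 0.13, and over all tested probes it was -0.03. The members were chosen with earlier results of these data known. Such counts and medians, here and below, thus describe the set and do not test it. The same 3 genes were called in KTR against pTV (background 3.32% higher) and in K314/315R against pTV (4.18% higher). Of all probes, 16.2% were higher than in pTV with no overlap in wild type, 16.5% in KTR and 24.2% in K314/315R. The 3 comparisons share the pTV arrays and are therefore not independent of each other. In these bulk samples fewer cells of a type and less RNA per cell cannot be told apart. The summed signal of the 10 fibroblast markers was 1100 to 1250 in wild type at 3 h and 1050 to 1250 in pTV, but 3 of them differed, *Pdgfra* and *Pdgfrb* being higher in wild type by 1.77 and 1.99 (log2) and *Thy1* differing by -1.19. The summed signal of 5 epithelial markers was 0.683 to 0.734 in wild type at 3 h and 1.06 to 1.29 in pTV, and the keratin gene *Krt18* was lower in wild type, where 1 of 3 arrays was well above background, against 3 of 3 in pTV. Their part in the results was not tested.

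**Figure D1:**
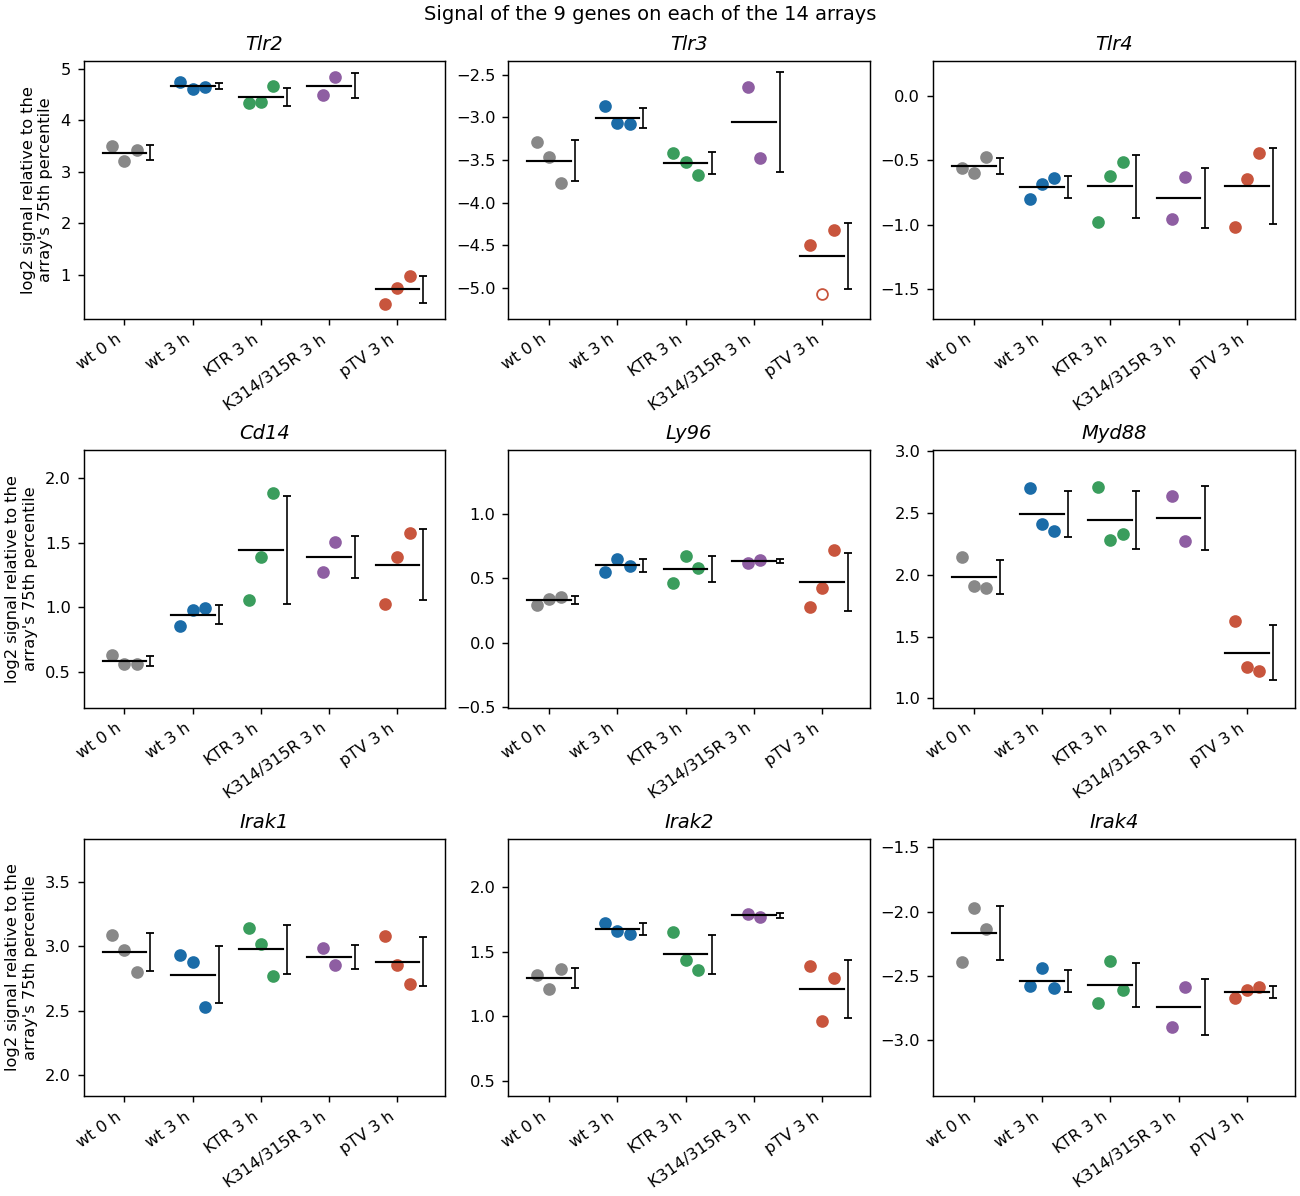
Signal of the 9 genes on each array (vertical axis, log2 relative to the array's 75th percentile; main probe of each gene), by group (horizontal axis). Each point is 1 array, open where the probe was not well above background, black lines are group means and bars the standard deviation. *Tlr2*, *Tlr3* and *Myd88* were lowest in pTV, with no overlap with any other group, whereas *Tlr4*, *Ly96* and *Irak1* differed little between groups.

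*Tlr2*, the lipopeptide receptor, showed the largest difference of the 9 genes. Its levels were 4.74, 4.61 and 4.65 in wild type at 3 h, 4.34, 4.35 and 4.66 in KTR and 4.50 and 4.85 in K314/315R. They were 3.49, 3.21 and 3.42 in wild type at 0 h and 0.44, 0.74 and 0.97 in pTV. Every array with p65 was above every pTV array, including the arrays of unstimulated wild type cells, and the 3 h arrays of all lines with p65 were above the 0 h arrays. Wild type exceeded pTV at 3 h by 3.95 ± 0.15 (log2, standard error), which is 15.5-fold (adjusted p 6.98e-09). The corresponding values were 3.74 ± 0.15 (13.3-fold, adjusted p 1.39e-08) for KTR and 3.96 ± 0.17 (15.5-fold, adjusted p 2.37e-08) for K314/315R. Within slides 1, 2 and 3 the difference between wild type and pTV was 4.30, 3.87 and 3.68. Unstimulated wild type cells were themselves 2.66 (log2) above stimulated pTV cells (adjusted p 3.08e-07), a pair of groups that differ in both p65 and TNFα.

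*Tlr3*, the endosomal receptor for double-stranded RNA, gave a dim signal. Its main probe read -2.87, -3.06 and -3.08 in wild type at 3 h, -3.42, -3.52 and -3.67 in KTR, and -2.64 and -3.47 in K314/315R. It read -3.29, -3.46 and -3.77 in wild type at 0 h and -4.50, -5.07 and -4.32 in pTV, where 2 of the 3 arrays were well above background. The pTV arrays were again the lowest, with no overlap, while KTR, K314/315R and wild type at 0 h overlapped. The difference from pTV was 1.63 ± 0.23 (3.09-fold, adjusted p 0.000335) for wild type, 1.095 ± 0.23 (2.14-fold, adjusted p 0.00600) for KTR and 1.58 ± 0.25 (2.98-fold, adjusted p 0.00087) for K314/315R. The second *Tlr3* probe was called in the same 3 comparisons, at 3.01-fold, 2.28-fold and 2.57-fold. None of the 3 calls of the main probe was kept after normexp background correction, which gave log2 differences of 0.81, 0.08 and 0.53. With that correction and without wild type 3 h replicate 1, the difference for wild type was 0.17 (adjusted p 0.855). The call in KTR was also lost without pTV replicate 2 (0.88).

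*Myd88*, which encodes the adaptor of TLR2 and TLR4, was the third gene called. It read 2.71, 2.41 and 2.36 in wild type at 3 h, 2.71, 2.28 and 2.33 in KTR and 2.64 and 2.28 in K314/315R, against 1.63, 1.26 and 1.22 in pTV. The 0 h arrays lay between these sets, at 2.14, 1.91 and 1.89, and overlapped with neither. The difference from pTV was 1.12 ± 0.16 (2.18-fold, adjusted p 0.00044) for wild type, 1.07 ± 0.16 (2.11-fold, adjusted p 0.000698) for KTR and 1.09 ± 0.18 (2.13-fold, adjusted p 0.00107) for K314/315R. These folds stood just above the threshold of 2. The call was lost in KTR without KTR replicate 1 (0.94) and in K314/315R without its replicate 1 (0.91), and that in wild type after normexp correction (0.92, adjusted p 0.0829). On slides 1 to 3 the array of slide 1 was the highest of each group, and within slides 1, 2 and 3 wild type exceeded pTV by 1.08, 1.16 and 1.14.

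**Figure D2:**
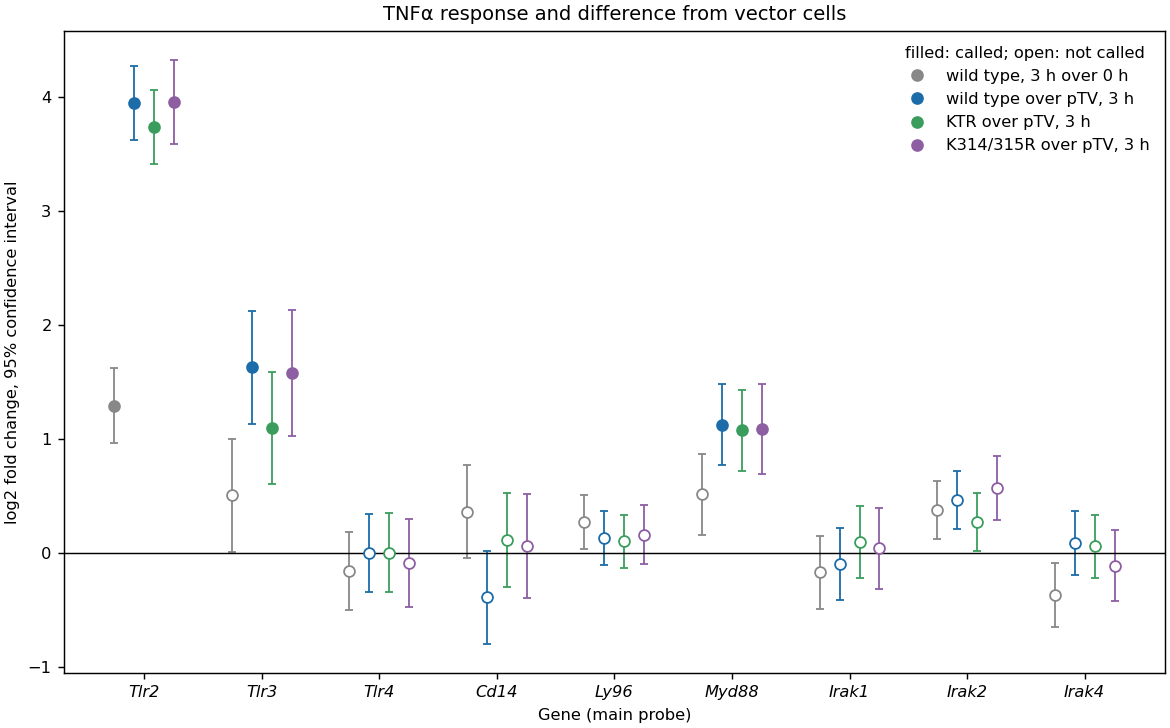
Log2 fold change (vertical axis) of the main probe of each gene (horizontal axis) in 4 comparisons, with 95% confidence intervals from the limma fit; filled points were called. *Tlr2*, *Tlr3* and *Myd88* were called against pTV for wild type and both mutants, and the response of wild type cells to TNFα (grey) was called for *Tlr2* only.

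The lipopolysaccharide receptor and its partners did not show this pattern. *Tlr4* ranged from -1.02 to -0.44 over all 14 arrays, and wild type and pTV differed by 0.00 (95% confidence interval -0.35 to 0.34). Its second probe was not well above background on any array and was not tested. *Ly96*, which encodes the MD-2 protein that binds lipopolysaccharide next to TLR4, differed from pTV by 0.13 (-0.11 to 0.36).

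*Cd14*, the co-receptor that hands lipopolysaccharide to this complex, read 0.86, 0.98 and 0.99 in wild type at 3 h and 1.03, 1.39 and 1.57 in pTV. It read 1.05, 1.39 and 1.88 in KTR, 1.28 and 1.502 in K314/315R, and 0.63, 0.56 and 0.56 in wild type at 0 h. The wild type arrays at 3 h thus lay below all arrays of the other 3 lines, with no overlap, and above the 0 h arrays. None of these differences was called: wild type minus pTV was -0.39 ± 0.19 (adjusted p 0.214), KTR minus wild type 0.50 ± 0.19 (adjusted p 0.415) and K314/315R minus wild type 0.45 ± 0.21 (adjusted p 0.298). Within slides 1, 2 and 3 KTR exceeded wild type by 0.20, 0.41 and 0.89. In the whole set, 14.2% of probes did not overlap between KTR and wild type and 36.2% between K314/315R and wild type. Between wild type at 3 h and pTV the share was 34.5%, with 18.3% lower in wild type.

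Of the kinases, *Irak2*, which prolongs signalling from these receptors, was the member closest to the pattern of *Myd88*. It read 1.72, 1.66 and 1.64 in wild type at 3 h, 1.65, 1.43 and 1.36 in KTR, and 1.795 and 1.767 in K314/315R. It read 1.32, 1.21 and 1.36 in wild type at 0 h and 1.39, 0.96 and 1.29 in pTV. Wild type and K314/315R stood above pTV with no overlap, while KTR overlapped with pTV. Of all probes, 16.2% stood above pTV with no overlap in wild type and 24.2% in K314/315R. Wild type was 0.46 ± 0.12 above pTV (1.38-fold, adjusted p 0.0187) and K314/315R 0.57 ± 0.13 (1.48-fold, adjusted p 0.00749), under the fold threshold, and KTR 0.27 ± 0.12 (adjusted p 0.157). *Irak1*, the kinase recruited to MyD88 that is modified and degraded after activation, differed from pTV by -0.10 (-0.42 to 0.21) in wild type, and its other 2 probes by -0.06 and -0.05. *Irak4*, the kinase that acts first in the complex, differed by 0.09 (-0.19 to 0.37). Its second probe, which was not well above background on any KTR array, differed by 0.17 (-0.18 to 0.52).

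The response of wild type cells to TNFα was read from the 3 h and 0 h arrays. *Tlr2* rose by 1.29 ± 0.15 (2.45-fold, adjusted p 0.000454) and was the 1 of 9 genes called, against a background of 1.12% of tested probes called higher and 0.424% called lower. Within slides 1, 2 and 3 the rise was 1.24, 1.40 and 1.23. Under normexp background correction the difference was 0.98 and not called, and with that correction and without wild type 3 h replicate 1 it was 1.28 and called.

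The other members moved less with TNFα. *Tlr3*, *Cd14*, *Ly96*, *Myd88* and *Irak2*, like *Tlr2*, were higher at 3 h than at 0 h with no overlap, and *Tlr4* and *Irak4* were lower with no overlap. Of all probes, 13.5% were higher and 17% lower in this way. *Myd88* was 0.51 ± 0.16 higher (1.43-fold, adjusted p 0.109), *Irak2* was 0.37 ± 0.12 higher (1.30-fold, adjusted p 0.102) and *Irak4* differed by -0.37 ± 0.13 (0.772-fold, adjusted p 0.140). When the replicate number was a block, the adjusted p of these 3 genes was 0.00103, 0.0362 and 0.0183, with folds still under 1.8. These values are of main probes. The second *Irak4* probe gave -0.255 without the block (adjusted p 0.480), and its 3 h and 0 h arrays overlapped. The median over the 9 genes was 0.36, and over all tested probes -0.04.

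**Figure D3:**
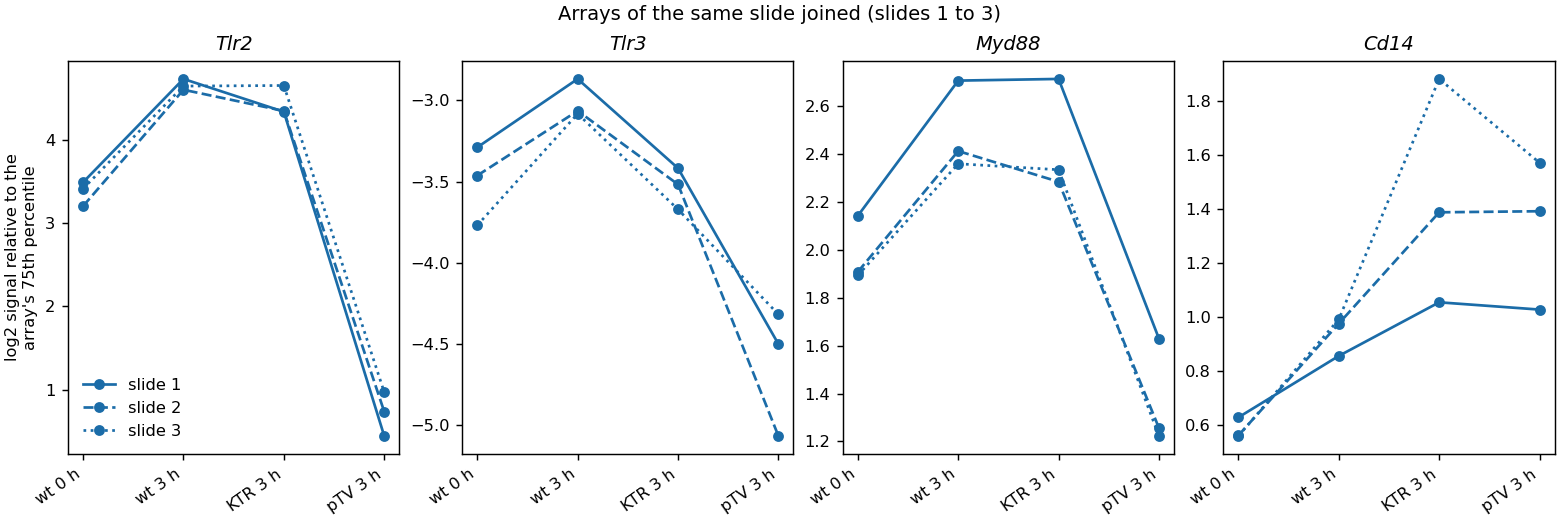
Signal of *Tlr2*, *Tlr3*, *Myd88* and *Cd14* (vertical axis, log2 relative to the array's 75th percentile) in the 4 groups that share slides 1 to 3 (horizontal axis); lines join the arrays of a slide. On each slide *Tlr2*, *Tlr3* and *Myd88* were higher in wild type at 3 h than at 0 h and lowest in pTV, and *Cd14* was higher in KTR than in wild type at 3 h.

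Exchange of the lysines was asked about by comparing both mutants with wild type p65 at 3 h. None of the 13 member probes was called in KTR or in K314/315R. The background was 0.167% of probes called in either direction for KTR and 1.2% for K314/315R, and 0.411% and 2.67% when the replicate number was a block. At an unadjusted p below 0.05 there were 2 of the 9 genes for KTR, against 9.19% of all probes, and 0 for K314/315R, against 17.4%. *Tlr2* differed by -0.21 (95% confidence interval -0.54 to 0.11) in KTR and by 0.01 (-0.36 to 0.37) in K314/315R. For *Myd88* the differences were -0.05 (-0.40 to 0.31) and -0.03 (-0.43 to 0.36). *Tlr3* was lower in KTR by -0.53 (-1.03 to -0.04, adjusted p 0.501) with no overlap, and within slides 1, 2 and 3 by -0.55, -0.45 and -0.59. Its second probe gave -0.40 (-1.16 to 0.36), and within these slides -0.52, -0.61 and -0.08. In K314/315R the main *Tlr3* probe differed from wild type by -0.05 (-0.60 to 0.50).

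The mutants compared with each other gave no member call either, against 2.55% of probes called (4.25% when the replicate number was a block) and 1 of the 9 genes at an unadjusted p below 0.05, against 21.4% of all probes. The *Tlr2* difference, KTR minus K314/315R, was -0.22 (-0.59 to 0.14), that of *Tlr3* -0.48 (-1.04 to 0.07) and that of *Myd88* -0.02 (-0.41 to 0.38). *Irak2* was -0.30 (-0.59 to -0.02, adjusted p 0.207) with no overlap, as were 30.8% of all probes. These intervals leave room for differences, which for *Tlr3* reach past 1.8-fold, so the lines are not shown to be alike.

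Ordered by mean level, *Tlr2* ran from K314/315R, wild type and KTR at 3 h, which did not differ beyond their spread, through wild type at 0 h to pTV. Its step from KTR down to wild type at 0 h was 1.08 (adjusted p 0.000999). *Myd88* had the same 3 groups on top, and its step from KTR down to wild type at 0 h was 0.46 (adjusted p 0.0886) and that from 0 h down to pTV 0.61 (adjusted p 0.0169). *Tlr3* had wild type, K314/315R, wild type at 0 h and KTR in that order without a difference beyond their spread between neighbours, and pTV below them by 1.095.

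The genes whose profile over the 14 arrays was most like that of each of these 3 members were listed as a description. For *Tlr2* they were *Ptx3* (Pearson r 0.995), *Lincr* (0.994) and *Irf1* (0.993). For *Tlr3* they were *Herc5* (0.960), *Psmb9* (0.958) and *Trim34* (0.957), and for *Myd88* they were *Traf3ip2* (0.980), *Hmgn3* (0.980) and 6330412F12Rik (0.979). All of these share the same 14 arrays, which fall into 5 groups, and no p is given.

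Of 53 further names of the Toll-like receptor and interleukin-1 receptor pathway, 41 were on the array and 34 were tested. Counts are of main probes, and calls of other probes are given beside them. In wild type against pTV 5 of the 34 were called higher and none lower, with a median of 0.11, against 3.59% and 1.46% of all probes. *Lbp*, the serum protein that carries lipopolysaccharide to CD14, read -1.98, -2.48 and -2.40 in wild type at 3 h and -2.94, -2.98 and -3.18 at 0 h. It was not well above background on any pTV array, so wild type was at least 5.56-fold higher than pTV (adjusted p 1.48e-08), KTR at least 4.33-fold (adjusted p 3.87e-08) and K314/315R at least 7.64-fold (adjusted p 2.37e-08). After normexp correction these 3 differences were 1.60, 1.09 and 1.64 (log2), all below these bounds, and none was called (adjusted p 0.461, 0.684 and 0.370). Bounds of this kind set the bright group's mean against the lowest signal well above background on the dim arrays. They hold for the main processing only. The adjusted p beside a bound is that of the fitted difference, which includes the dim spots, and does not test the bound. *Irak3*, an inhibitory member of the IRAK family, was likewise not measured on any pTV array and was at least 2.83-fold higher in wild type (adjusted p 0.000975), and its other probe, on 2 of 3 wild type arrays, at least 1.09-fold.

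*Irf7*, a transcription factor of the interferon response downstream of endosomal receptors, exceeded its pTV level 9.19-fold in wild type (adjusted p 0.00157). It was well above background on 2 of 3 pTV arrays, at -2.38, -5.05 and -4.10, against -0.39, -0.26 and -1.27 in wild type at 3 h. The log2 difference of 3.20 became 3.93 without pTV replicate 1 and 2.60 without pTV replicate 2, and *Irf7* did not differ with TNFα (-0.04). *Peli3*, a ubiquitin ligase that acts on IRAK proteins, was 3.31-fold higher (adjusted p 0.00176), again with 2 of 3 pTV arrays well above background. After normexp correction *Irf7* differed by 1.68 (adjusted p 0.0775), *Peli3* by 0.94 (adjusted p 1.00), *Irak3* by 0.66 and *Unc93b1* by 0.80, and none of the 4 was called. *Unc93b1*, which brings endosomal receptors to their compartment, was 2.21-fold higher by its main probe (adjusted p 0.000232) while its other probe gave -0.24, so its probes disagreed, and the call was lost without wild type 3 h replicate 1 (0.99).

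Against pTV, KTR had 5 of the 34 genes called higher and 1 lower and K314/315R had 6 higher and none lower. Of all probes, 3.32% were called higher and 1.36% lower in KTR, and 4.18% and 4.68% in K314/315R. After normexp correction none of these pathway calls was kept. The genes called higher then differed by 0.03 (*Irak3*) to 1.13 (*Irf7*) in KTR and by 0.53 (*Irak3*) to 1.64 (*Lbp*) in K314/315R (log2). *Irak3* was called in both, at least 1.95-fold in KTR, where 1 of 3 arrays was well above background, and at least 3.56-fold in K314/315R. *Irf7* (5.84-fold and 7.78-fold) and *Peli3* (2.89-fold and 3.85-fold) were also called in both, *Irf7* ranging from 1.94 to 3.28 (log2) in KTR and from 2.36 to 3.69 in K314/315R without pTV replicate 2 or 1. With only the KTR and pTV arrays in the fit, *Irak3*, *Irf7* and *Peli3* were not called (adjusted p 0.0695, 0.0621 and 0.0612). Their log2 differences were unchanged, at 1.593, 2.545 and 1.533. *Tlr7*, the endosomal receptor for single-stranded RNA, was called in KTR, at least 1.88-fold, with 2 of 3 KTR arrays well above background. A second probe of *Il1rap*, a subunit of interleukin-1 family receptors, was also called in KTR, at least 2.14-fold. *Peli2* was called in K314/315R (2.02-fold, adjusted p 0.000603), together with *Unc93b1* (2.10-fold), and both calls were lost without K314/315R replicate 2 (0.75 and 0.99) or pTV replicate 2 (0.92 and 0.98). *Sigirr*, a receptor that restrains this signalling, was lower in KTR than in pTV at 0.446-fold (adjusted p 0.000206) and lower than in K314/315R at 0.527-fold (adjusted p 0.0131), and it was well above background on 1 of 3 KTR arrays. The latter call was lost without KTR replicate 3 (-0.79) or K314/315R replicate 2 (-0.80). It was also lost with slide as a random block (adjusted p 0.0632) and with only the arrays of both groups in the fit (adjusted p 0.130). In these 2 settings the difference stayed at -0.923, and after normexp correction, where it was not called, it was -0.73. The *Sigirr* difference between KTR and pTV was -1.13 after normexp correction (adjusted p 0.506), close to its main value of -1.17.

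With TNFα, *Irf5*, a transcription factor that binds MyD88, was the 1 pathway gene called by its main probe. It read -0.02, 0.17 and 0.12 at 3 h and -1.023, -0.997 and -1.099 at 0 h with no overlap, a 2.18-fold rise (adjusted p 0.000141), which was not called after normexp correction (0.98, adjusted p 0.0667). Of the other probes, 1 of *Il1rl1*, the interleukin-33 receptor, was called at 1.98-fold (adjusted p 0.000253), where its main probe gave 1.68-fold, and 1 of *Il1rap* at an adjusted p of 0.0188, at least 1.55-fold, where its main probe gave 1.54-fold. In both mutants against wild type none of the 34 main probes was called, with 3 of them at an unadjusted p below 0.05 for KTR and 7 for K314/315R. The second probe of *Peli2*, which is dim, was called higher in K314/315R than in wild type (1.95-fold, adjusted p 0.0352) and lower in KTR than in K314/315R (adjusted p 0.0356), while its main probe was 1.60-fold higher in K314/315R than in wild type (adjusted p 0.0457). *Tlr5*, *Tlr6*, *Tlr9*, *Tirap*, *Ticam1*, *Traf6*, *Map3k7* and *Tbk1*, which cover further receptors, adaptors and kinases, were tested and called in no comparison.

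**Figure D4:**
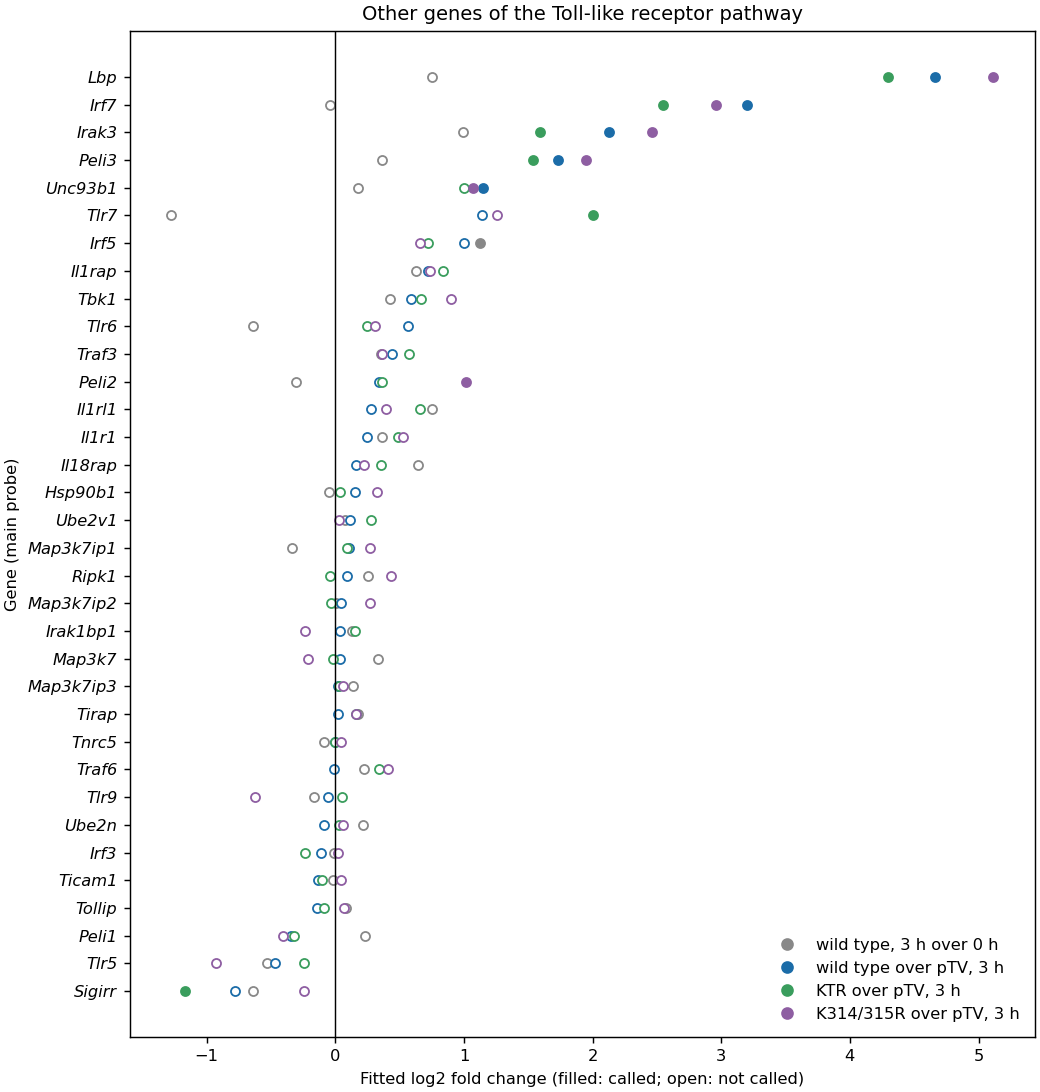
Fitted log2 fold change (horizontal axis) of the 34 tested pathway genes (vertical axis, ordered by wild type over pTV) in 4 comparisons; filled points were called. Fitted values of *Lbp*, *Irak3* and *Tlr7* against pTV rest on arrays where the probe was not well above background, and most genes lay near 0.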

How the data were processed

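RNA of 14 cultures in 5 groups was labelled with Cy3 and hybridised to Agilent 4 x 44K one-colour arrays. Per the file headers, the deposited scanner files hold a processed signal intensity for each spot, background-subtracted by Agilent Feature Extraction (9.1.1.1 on slides 1 to 3, 9.1.3.1 on slide 4). The authors normalized in Rosetta Resolver with default settings; the deposited value table, a signal per probe, was used as an alternative. Here spots marked as outliers were left out, spots of a probe averaged, intensities divided by the array's 75th percentile (967 to 1442) and log2-transformed. Tests covered each probe where at least 1 group had it well above background on each of its arrays. The test was limma 3.58.1 (R 4.3.3), all 14 arrays in 1 fit, group as the only term. Of several probes of a gene, the one with the highest mean was the main probe, and the others were given only in part. The members, the gene lists and the rule for named genes (every member, called pathway genes measured on all arrays of both groups, the 3 most similar profiles) were chosen with earlier results of these data known, and other called pathway genes were named after their values were seen. Names came from the files, and 13 of the 14 accessions matched RefSeq under the same symbol.

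Arrays with the same replicate number shared a slide on slides 1 to 3. Deviations from group means correlated at 0.308 to 0.613 between same-numbered arrays in 18 pairs and at -0.51 to 0.0935 otherwise. The numbers thus pair these arrays. The K314/315R arrays, on slide 4, correlated at -0.101 to 0.409 with same-numbered arrays and at -0.414 to 0.414 with others. For them the numbers give no clear pairing. Alternatives were background correction, scaling, the value table, filters, blocks, arrays in the fit and leaving out each array. On simulated arrays modelled on KTR over wild type (21583 probes), 94% of 100 probes changed by 1.5 (log2) and 97% of 100 changed by 3 were recovered. The number of arrays limits the precision.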

Additional observations from a re-analysis of the deposited data

How the results depend on the processing

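The number of member probes called was recomputed under each alternative. With normexp background correction it was 0 for TNFα in wild type, 1 for wild type over pTV and 2 each for KTR and K314/315R over pTV, and the number of member genes called was 0 and 1 in the first 2 of these. After normexp the median signal was 1793 on wild type 3 h replicate 1 and 669 on pTV replicate 2, against 139 to 263 on the other 12 arrays. Leaving out that wild type array with normexp, an alternative chosen after seeing the data, gave 1 called probe for TNFα and 2 in each of the 3 comparisons with pTV, and *Irak3* then read -0.13 for wild type over pTV. Limiting the test to probes measured well above background throughout leaves *Tlr3* out and gave 2 called probes in each comparison with pTV. Leaving out 1 array at a time gave 1 called probe and 1 gene for TNFα, 4 probes and 3 genes for wild type over pTV, 2 to 4 probes and 2 to 3 genes for KTR and K314/315R over pTV, and 0 between mutants and wild type. Without KTR replicate 1 or pTV replicate 2 the KTR count was 2, and without K314/315R replicate 1 that of K314/315R was 2; the single K314/315R array left is then assumed to vary like the other groups.

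When the replicate number was a block, the counts were 1 called probe for TNFα, 4 in each comparison with pTV and 0 between mutants and wild type, and no call of a member changed, while *Irak3* was then called for TNFα (0.99) and for KTR over K314/315R (-0.89). Slide as a random block gave 3 called probes in place of 4 for K314/315R over pTV, and the other member counts did not change with slide as a block. Over all probes the calls ranged widely over the alternatives, from 1 to 1402 for KTR over wild type and from 0 to 763 for K314/315R over wild type, so a count of 0 members is read against those backgrounds. At an unadjusted p below 0.05, with no fold required, 2 member genes passed for KTR over wild type, 0 for K314/315R over wild type and 1 for KTR over K314/315R. Dim probes such as *Tlr3* are limited by signal over background.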
